A study of Mus musculus with 2 samples.

Results

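Mir143 and Mir145a are a pair of miRNA genes that lie next to each other on mouse chromosome 18 and are known from smooth muscle. They were chosen by name, from the Ensembl identifiers ENSMUSG00000065445 and ENSMUSG00000065592, and are 2 of the 1973 miRNA genes counted. The study sequenced small RNA from total RNA of skeletal muscle tissue of B6NCrl mice, an inbred laboratory strain, on the day of birth (postnatal day 0). The 2 libraries came from pup 1 (replicate 1) and pup 2 (replicate 2) of the same litter, both untreated as far as the labels say, and the sex of the pups was not collected. All samples form 1 group, so differences below are between 2 littermates and not between conditions. The labels name different pups but give both libraries the same donor identifier, so the SDs below measure the spread between these 2 libraries, taken to stand for 1 pup each. Pup, dissection and library preparation cannot be told apart.

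The miRNAs of this locus are made from a joint primary transcript, from which each hairpin is cut out separately. In contractile smooth muscle the transcript is switched on by serum response factor with its coactivator myocardin, and both miRNAs are known for holding these cells in their contractile state. Known targets include Elk1 for miR-143 and Klf4 and Klf5 for miR-145, transcription factors that favour the proliferating state of the cells. In skeletal muscle, smooth muscle is found in the walls of blood vessels, and fibroblasts also make these miRNAs. The files count miRNA genes only, so protein markers of smooth muscle were not measured here. In bulk tissue, fewer cells of a type and less RNA per cell cannot be told apart.

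Both hairpins lie on the minus strand of chromosome 18 (build mm10), Mir143 from 61649196 to 61649258 and Mir145a from 61647825 to 61647894. Mir143 comes first in the direction of transcription, and 1301 bases separate the hairpins. The annotations differ on what surrounds them. In GENCODE M21, Carmn, a long non-coding RNA gene also known as the host gene of Mir143, spans 61649625 to 61665537 and ends 366 bases before Mir143, so neither hairpin overlaps another gene there. In RefSeq on the same assembly Carmn spans 61645878 to 61665538 and contains both hairpins. On the plus strand Bvht, a long non-coding RNA gene known from heart development, ends 352 bases from Mir145a, at 61647472. Reads on the strand opposite either hairpin were 0 in both libraries.

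**Figure D1:**
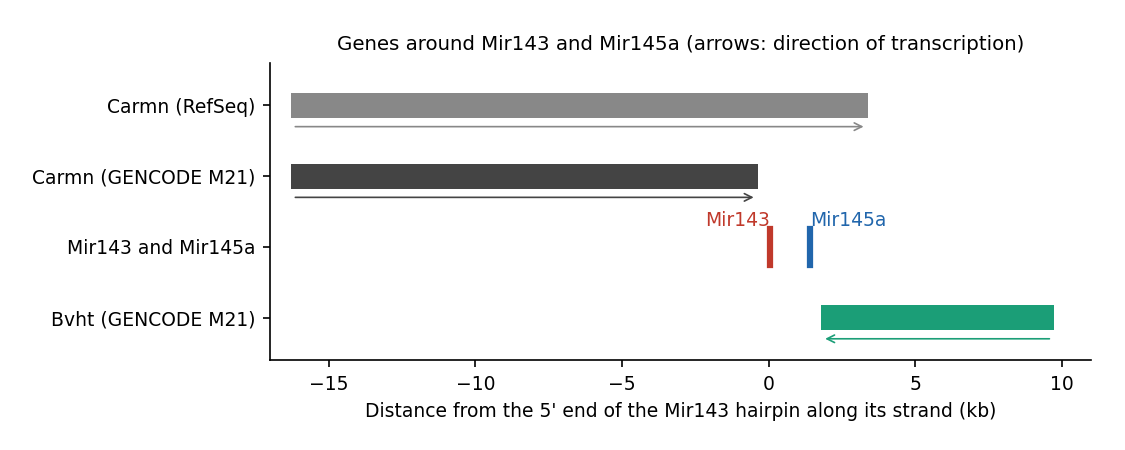
Positions of Mir143, Mir145a, Carmn in each annotation and Bvht, as distance in kb from the 5′ end of the Mir143 hairpin along its strand; arrows give the direction of transcription. Both hairpins fall inside Carmn as RefSeq draws it and past its end as GENCODE M21 draws it.

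The hairpins are not copies of each other. Mir143 has 63 bases with 55.6% G and C, Mir145a has 70 bases with 48.6%, and the longest run that both share is 5 bases. Their predicted folding energies were -36.9 kcal/mol for Mir143 and -30.3 kcal/mol for Mir145a. Per base, Mir143 was more stable than 95.9% of the 2202 miRNA hairpins of the annotation, and Mir145a was more stable than 72.6%. The longest run of Mir143 found in any other miRNA hairpin was 11 bases. Mir145a shares a run of 17 bases with Mir145b, a related gene elsewhere on chromosome 18 (69022199 to 69022273). Mir145b itself had 1 count in replicate 1 and 0 in replicate 2, and a count of 0 there allows up to 3 counts, or 0.584 CPM (own-strand counts scaled to a library total of 1000000). Reads that mapped to several places were listed apart from the gene counts, and what part of them came from Mir145a was not tested.

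In counted reads, Mir143 was among the highest miRNA genes of newborn skeletal muscle, at a level 53.1 ± 2.35 times that of Mir145a (SD, n = 2). Mir143 had 112616 own-strand counts in replicate 1 and 154968 in replicate 2. Scaled to all own-strand counts in miRNA genes, 3754895 and 5133949, this was 29992 CPM (exact 95% interval 29820 to 30165, Clopper-Pearson) and 30185 CPM (30037 to 30333). The intervals of the pups overlap. The mean was 30088 ± 137 CPM (SD, n = 2), or 3.00% and 3.02% of counts. Mir143 ranked 13 of 563 detected genes in replicate 1 and 11 of 605 in replicate 2. Multimapping reads (30.2% in replicate 1 and 29.9% in replicate 2) are left out of these ranks. Genes with close copies can therefore stand too low. Mir1a-1 and Mir133a-1, which share at least 20 bases with another miRNA gene, ranked 271 and 282 by mean CPM. The rank of Mir143 among all miRNAs of the tissue was not tested.

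Mir145a had 2188 counts in replicate 1 and 2828 in replicate 2. This was 583 CPM (559 to 608) and 551 CPM (531 to 572), and these intervals overlap as well. The mean was 567 ± 22.5 CPM (SD, n = 2), or 0.0583% and 0.0551% of counts. Its rank was 112 in replicate 1 and 111 in replicate 2, so Mir145a lay well inside the measurable range in both pups, with 80.1% and 81.7% of detected genes below it. Intervals treat reads as independent and cover counting error only. The tables give reads and not molecules, so the intervals can be too narrow.

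**Figure D2:**
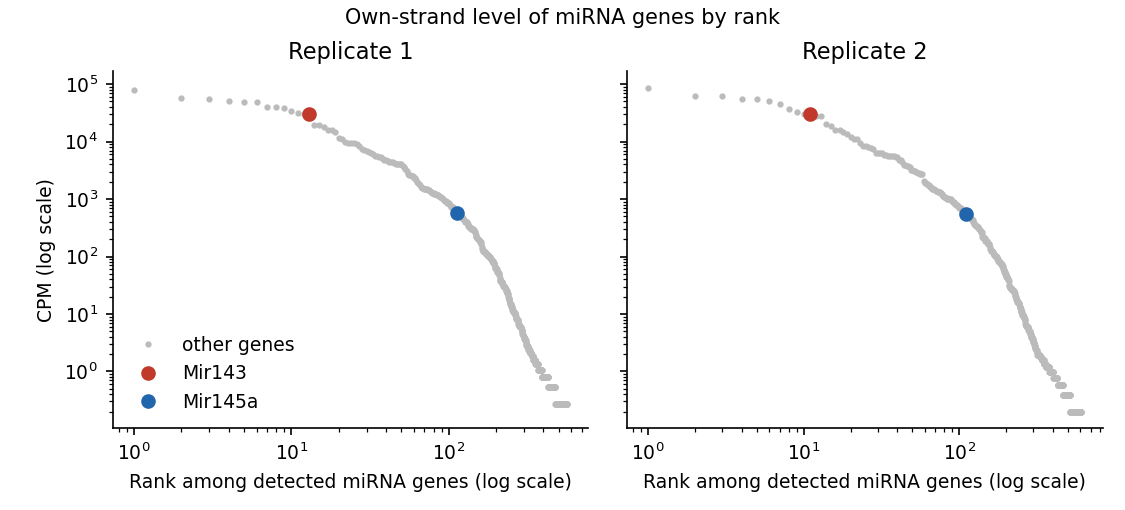
CPM of each detected miRNA gene against its rank in replicate 1 and replicate 2, both axes logarithmic; red and blue points are Mir143 and Mir145a. Mir143 sits on the upper shoulder of the curve at ranks 13 and 11, and Mir145a on its slope at ranks 112 and 111.

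The imbalance in reads between the hairpins was nearly the same in each pup. How reads of different sequences relate to their amounts in the tissue was not tested. Mir143 exceeded Mir145a by 51.5-fold in replicate 1 (exact interval 49.3 to 53.7) and by 54.8-fold in replicate 2 (52.8 to 56.9), a mean log2 ratio of 5.73 ± 0.064 (SD, n = 2). Mir145a thus made up 1.91% and 1.79% of the reads of the locus. The ratio in replicate 1 was 0.939 of that in replicate 2 (95% interval 0.888 to 0.994), a log2 difference of -0.09. This passed a two-sided Fisher's exact test on the reads (p = 0.030, 1 comparison), which accounts for counting error only and compares 2 libraries. In replicate 1 the genes together held 3.06% of counts (3.04 to 3.07), and in replicate 2 they held 3.07% (3.06 to 3.09). Mir143 supplied nearly all of it.

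Among its neighbours in the order of counted reads, Mir143 was close to let-7 miRNAs and Mir322. Mir99a (36446 ± 4535 CPM), a miRNA shared by many tissues, and Mirlet7i (32280 ± 2655 CPM) stood above it, and neither overlapped the range of Mir143 over the pups. Mirlet7g (30200 ± 2513 CPM), next above, and Mir322 (29178 ± 1772 CPM), next below and known from myoblast differentiation, did overlap it, so the order of these genes is not resolved. After these came Mir379 at 19962 ± 986 CPM and Mir23a at 19315 ± 787 CPM, below Mir143 in both pups.

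By counted reads, the range of Mir145a over the pups was clear of 1 of its 6 nearest neighbours. Above it stood Mir499 (599 ± 37.9 CPM), a miRNA of the slow muscle myosin gene Myh7b, Mir28a (579 ± 76.2 CPM) and Mir15b (571 ± 80.1 CPM). Below it stood Mir208b (564 ± 5.05 CPM), from an intron of the slow myosin gene Myh7, Mir323 (538 ± 46.3 CPM) and Mir181a-1 (514 ± 21.3 CPM). The ranges over the pups overlapped that of Mir145a for the other 5, and Mir181a-1 lay below it in both.

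How closely the pups matched depended on the scaling, most of all for Mir143. On the CPM scale, by library totals, the coefficient of variation was 0.454% for Mir143 and 3.98% for Mir145a. Of the 89 other genes with a mean of at least 1000 CPM, 2 had a smaller coefficient than Mir143, and of all 90 such genes 13 had a smaller one than Mir145a. Ratios between pups were also taken after TMM scaling, which corrects for differences in composition and shifts every log2 ratio by 0.13 against scaling by totals. On that scale the log2 ratio of replicate 1 over replicate 2 was -0.14 for Mir143 and -0.05 for Mir145a, where the median over the 373 genes tested was -0.0059. The median absolute value was 0.32 over these genes and 0.24 over the 90 genes with a mean of at least 1000 CPM. Of the other genes with such a mean, 29 lay nearer to 0 than Mir143 on the TMM scale, on which its coefficient of variation was 6.90%, and 13 lay nearer than Mir145a.

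A gene was called between the pups when an exact two-sided binomial test, adjusted over the 373 genes by Benjamini-Hochberg, passed 0.05 and the ratio was at least 2-fold. Neither Mir143 nor Mir145a was called, where 5.09% of genes tested were. Without the fold minimum 49.1% of genes passed, Mir143 among them (adjusted p = 9.2e-137, exact binomial test) and Mir145a not (adjusted p = 0.35). At the depth of Mir143 a ratio of 0.907 is past counting error. With totals as the scale its log2 ratio was -0.0093 and no longer passed (adjusted p = 0.18, exact binomial test), and that of Mir145a changed sign to 0.081 (adjusted p = 0.091).

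**Figure D3:**
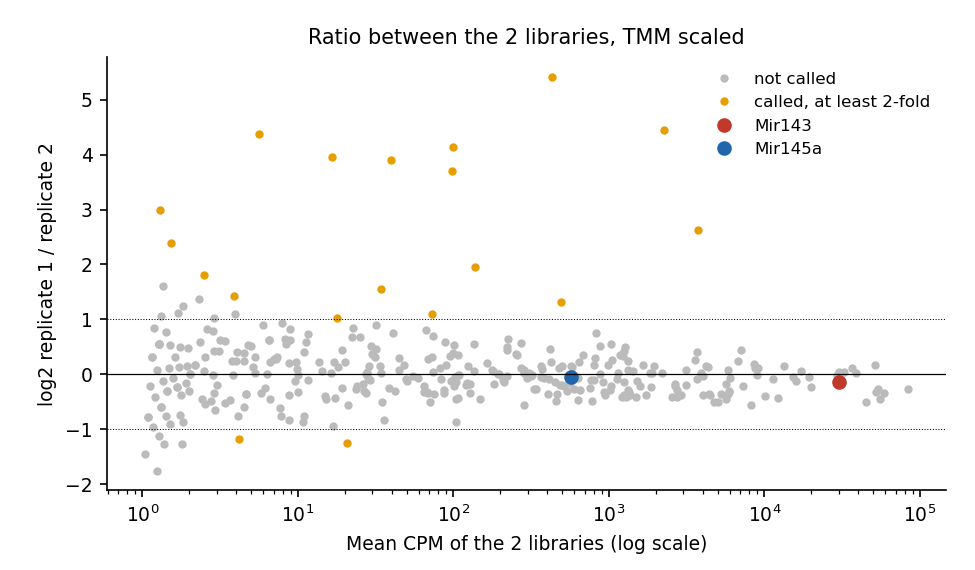
log2 ratio of replicate 1 over replicate 2 after TMM scaling against mean CPM (log scale) for the 373 genes tested; orange points were called and dotted lines mark 2-fold. Mir143 (red, -0.14) and Mir145a (blue, -0.05) lie close to the line of no difference.

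The genes whose ratio between the pups was nearest to each member were sought among genes with a mean of at least 1000 CPM. Nearest to Mir143 were Mir101b (log2 ratio -0.14), Mir181c (-0.13) and Mir23b (-0.12), and nearest to Mir145a were Mir23a (-0.05), Mir22 (-0.04) and Mir652 (-0.04). With 2 libraries this likeness rests on a single ratio per gene, and 89 and 90 candidates were compared.

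The share of the locus, 3.06% in replicate 1 and 3.07% in replicate 2, was set beside miRNA genes that mark other cell types. Mir206, a miRNA of skeletal muscle fibres, ranked 1 of all genes counted. Striated muscle genes, 9 of 10 listed, held 8.13% in replicate 1 and 8.94% in replicate 2. Mir206 supplied nearly all of this, with 79447 CPM in replicate 1 and 87198 CPM in replicate 2. The endothelial gene Mir126a, from the lining of vessels, had 40785 CPM in replicate 1 and 36558 CPM in replicate 2. The locus over Mir126a had a log2 ratio of -0.42 in replicate 1 and -0.25 in replicate 2, with the endothelial gene higher in both pups. The 4 connective tissue genes, led by Mir214, held 0.665% and 0.568%. Of the connective tissue genes 3 of 4, and of the striated muscle genes 4 of 9, share at least 20 bases with another miRNA gene. Multimapping reads were not counted, which leaves the shares of both lists uncertain.

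Epithelial genes and the cartilage gene Mir140 differed between the pups. All 7 epithelial genes were called higher in replicate 1, where 5.09% of all genes tested were called in either direction. Their summed share was 0.569% in replicate 1 but 0.0230% in replicate 2. The cartilage genes Mir140 and Mir455 held 0.792% and 0.195%, with Mir140 called (log2 ratio 2.63) and Mir455 not (0.35). The 4 blood genes listed held 0.0973% and 0.0673%. Of them 0 were called, where 5.09% of all genes tested were, and 3 passed without the fold minimum, where 49.1% did. Of the 5 nerve genes listed, 4 had 0 counts in both pups, but all 5 share at least 20 bases with a further miRNA gene, and their low counts are uncertain for that reason. Any part of those tissues in the level of Mir143 or Mir145a was not tested.

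In counted reads the locus held a larger share than the other listed miRNA genes known from the control of vascular smooth muscle together. Mir143 and Mir145a held 3.06% and 3.07% of counts, and the other genes of the list together held 2.75% and 2.33%. Of 20 such genes 17 were among those counted (Mir1a-2, Mir24-1 and Mir663 were not). Mir1a-1, Mir133a-1 and Mir133a-2 are also in the striated muscle list above, and Mir155 is in the blood list, so these are not particular to smooth muscle. All 17 genes counted were lower than Mir143, and 14 were lower than Mir145a. The exceptions were Mir22 (15371 ± 658 CPM), Mir21a (7078 ± 1974 CPM), a growth and fibrosis miRNA, and Mir10a (1953 ± 267 CPM), which lies in the Hoxb cluster. The remaining genes reached at most 384 ± 11.2 CPM, the value of Mir24-2. Mir221 (66.9 ± 29.6 CPM) and Mir222 (29.9 ± 7.37 CPM), known for the proliferating state of smooth muscle, were far below both members. Mir31, also linked to proliferation, had 44.4 ± 4.65 CPM, and Mir204, known from vascular calcification, had 123 ± 1.67 CPM. Mir29a had 180 ± 16.9 CPM, and the inflammation-linked genes Mir146 and Mir155 had 59.6 ± 1.62 and 44.9 ± 9.54 CPM. Lowest were Mir26a-2 (29.3 ± 0.381 CPM), Mir1a-1 (7.68 ± 1.82 CPM), Mir133a-1 (5.78 ± 0.641 CPM), Mir26a-1 (5.01 ± 1.58 CPM) and Mir133a-2 (1.12 ± 0.0731 CPM). Mir365-1 had 0 counts in replicate 1 and 1 in replicate 2. These last 6, Mir24-2 and Mir146 share at least 20 bases with another miRNA gene, 8 in all. Reads that mapped to several places were not counted, so the counts of these genes and the summed share of the list can be too low.

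Of the 16 genes of this list with enough counts to be tested, 0 were called between the pups, where 5.09% of all genes tested were, and 4 passed without the fold minimum, where 49.1% did (exact binomial test). Scaled by totals, an alternative added after seeing the data, 7 passed and all 7 were higher in replicate 1. That scale raises every log2 ratio by 0.13 against TMM, those of genes outside the list included. What share of all genes tested passed on it was not determined. By TMM scaling Mir21a was higher in replicate 1 (log2 ratio 0.44), as were Mir221 (0.80) and Mir10a (0.15). Mir22 was lower in replicate 1 (-0.04) and higher by totals (0.087). The median log2 ratio of the list was 0.0080, against -0.0059 over all genes tested.

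**Figure D4:**
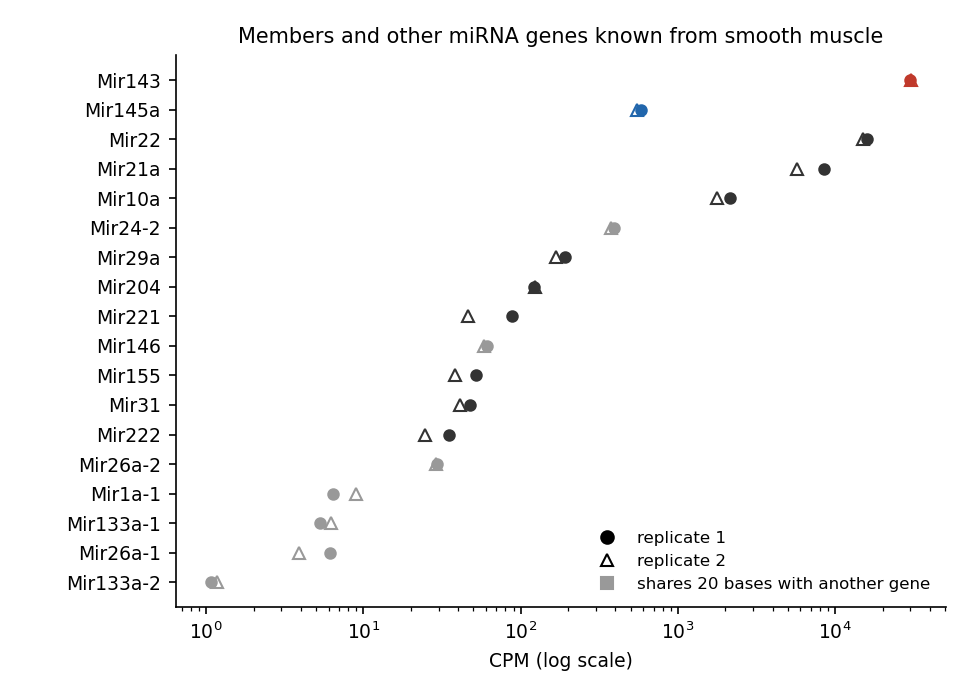
CPM (log scale) in replicate 1 (filled circles) and replicate 2 (open triangles) of Mir143, Mir145a and the other listed smooth muscle genes with counts in both libraries; grey genes share 20 bases with another miRNA gene. Mir143 lies right of every other gene, and Mir22, Mir21a and Mir10a lie between it and Mir145a.

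A wide gap in counted reads between neighbouring miRNA genes was common, and that of Mir143 and Mir145a was at the wide end. Consecutive miRNA genes on the same strand and at most 10 kb apart were compared, where both had at least 10 counts in each library. Besides Mir143 and Mir145a there were 89 such pairs, 39 of them on chromosome 12, and a gene can belong to more than 1 pair. The log2 ratio of Mir143 over Mir145a was 5.73, and the median absolute ratio of the other pairs was 3.03, an 8.18-fold gap. A wider gap was found in 17 of the 89, or 19.1%. Reads that mapped to several places were not counted, so gaps of pairs in which a gene shares 20 bases with another are uncertain. Among the 58 pairs in which no gene shares 20 bases with another, as is true of Mir143 and Mir145a, the median was 2.56 and 6 pairs were wider, 4 of them on chromosome 12.

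A set of 16 named pairs was compared as well, all known as clustered genes, of which 12 had both genes counted at that depth. Their median absolute log2 ratio was 3.78, and 3 pairs were wider than Mir143 and Mir145a. These were Mir30e over Mir30c-1 (8.12), Mir206 over Mir133b (6.76) and Mir199a-2 against Mir214 (6.35 in favour of Mir214), and in each a gene shares 20 bases with another miRNA gene. Of the 6 pairs without such a gene, 0 were wider. The widest of them was Mir34c over Mir34b, whose log2 ratio of Mir34b over Mir34c was -4.68, and next came Mir322 over Mir503 (4.14) and Mir132 over Mir212 (3.42). Mir143 and Mir322 overlapped in level, but Mir145a averaged 567 CPM and Mir503, the partner of Mir322, averaged 1661 CPM. The other pairs without a copy were Mir144 over Mir451a (-1.60), Mir181c over Mir181d (1.25) and Mir221 over Mir222 (1.10). The remaining pairs, each with a copy, were Mir23a over Mir27a (5.42), Mir379 over Mir411 (-1.38) and Mir15a over Mir16-1 (0.53). Mir29a with Mir29b-1 and Mir193b with Mir365-1 had too few counts, and Mir191 with Mir425 and Mir497 with Mir195a were not both listed.

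The gap of Mir143 over Mir145a moved little from pup to pup beside those of other pairs. Its log2 ratio differed by 0.09 between the libraries. The median absolute difference was 0.33 over the 12 named pairs, of which 0 had a smaller one, and 0.17 over the 89 neighbouring pairs, of which 25 had a smaller one. Among the named pairs, Mir15a with Mir16-1 (0.096), Mir379 with Mir411 (0.098) and Mir23a with Mir27a (0.099) had nearly as small a difference. Pairs with fewer reads carry more counting error in this difference.

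**Figure D5:**
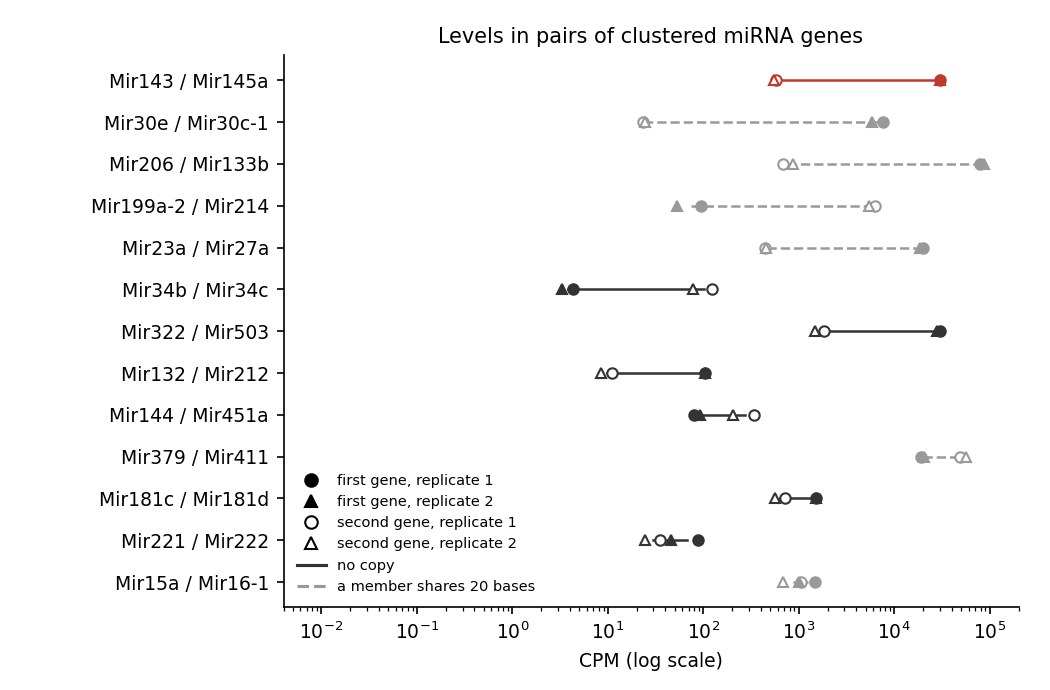
CPM (log scale) of both genes in Mir143 / Mir145a (red, top) and in the 12 other named pairs, ordered by gap; filled marks are the first gene, open marks the second, circles replicate 1 and triangles replicate 2. The red pair averages 30088 and 567 CPM, a wider gap than in each pair drawn with a solid line, in which no gene shares 20 bases with another.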

How the data were processed

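The authors deposited whole-number read counts per miRNA gene for each library, made on mm10 with annotation M4 per the deposited descriptions; the aligner and counter are not given in the sources used here. The tables have 3 count columns without a header, of which the first equals the sum of the others. Own-strand counts were used, and the 4 lines of unassigned reads stayed out of library sizes (30.2% and 29.9% of reads were multimapping). Identifiers were matched to GENCODE M21, 1894 of 1973, and Carmn also to RefSeq (GRCm38.p6). CPM used own-strand totals, and log2 ratios had 0.5 added to each count. TMM factors came from edgeR 4.0.16, and tests and intervals from scipy 1.17.1. Genes with at least 10 counts in total were tested. Folding used ViennaRNA 2.7.2 on GENCODE hairpins. The binomial procedure was tested on counts simulated with set folds and counting error but no spread between pups. Members and lists were chosen with earlier results of these data known. The genes named are the members, 3 rank neighbours on each side, the 3 nearest in ratio, and every member of the fixed smooth muscle and pair lists. Alternatives were strand, denominator, scaling (DESeq2 1.42.0, totals), pseudocount, filters, pair distance and single libraries. Sequences of these hairpins are not reported here.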

Additional observations from a re-analysis of the deposited data

How the results depend on the processing

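Over 12 results and 46 alternative values, 32 were classed as the same as the main value, 12 as moved, 1 as weaker and 1 as reversed. The number of genes called, 19, was classed as the same at 13 (at least 50 counts) and at 22 (scaling by totals). Counting either strand lowered the level to 26868 CPM for Mir143, 506 CPM for Mir145a (rank 121) and 2.74% for both, because the denominator grows. Over all reads these were 15676 CPM, 295 CPM and 1.60%. Total-count scaling gave log2 ratios between the pups of -0.0093 for Mir143, no longer past the threshold, and 0.081 for Mir145a, with the sign reversed. That scaling shifts all ratios alike, and 7 smooth muscle list genes passed in place of 4 (added after seeing the data). Without the fold minimum 183 genes passed, against 19 with it. Wider neighbouring pairs made up 9.09% with at least 100 counts in each library and 10.3% without pairs that share 20 bases; the cause was not tested. With either library left out, Mir145a ranked 111 to 112. No paired analysis was possible because the labels give a single group. Depth limits neither member, and the SD rests on 2 pups.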
